A study of Mus musculus with 26 samples.

Results

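The genes described here build the axoneme, the microtubule core of motile cilia and of the sperm tail, or carry the sperm-associated antigen name. They were chosen by gene symbol, as every row of the count tables that names an axonemal dynein chain, a tektin, a radial spoke gene or a numbered Spag gene. Of the 23337 genes counted, 39 were members, 25 by the symbol in the tables and 14 by their current RefSeq symbol (the tables write Dnah genes as Dnahc, for example). They were 11 dynein heavy chains, 5 smaller dynein chains, 5 tektins, 7 radial spoke genes, 3 central apparatus genes (Spag6, Spag16 and Spag17) and 8 other Spag genes. Dnah3, Dnah7c, Dnah12 and Dnah14 were not analysed here. Reads of the near copies Dnahc7a and Dnahc7b, Rsph3a and Rsph3b, and Spag11a and Spag11b may be split between the copies, so the values of these 6 genes are uncertain.

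Sequenced RNA came from 2 segments of the epididymis, the initial segment (IS) and the caput, with 5 ArKI and 5 WT samples each, and from the testis, with 3 ArKI and 3 WT samples. ArKI males carry a germline knock-in allele, present in every cell, and WT males carry the normal allele. All mice were 3 months old and shared the C57Bl/6N; 129 hybrid background. The study asked how the knock-in changes gene expression in these tissues. IS samples held 5829074 to 9770625 counts, caput samples 4125768 to 11913469 and testis samples 14077013 to 21376604. The labels give the testis another sequencing batch than the epididymis, so tissue and batch cannot be told apart. Summed CPM (counts scaled to the size of the library) of 14 epididymal principal cell markers ran from 69481 to 79296 over all IS samples and from 44188 to 53665 over all caput samples. Of these markers Crisp1 was downregulated in the ArKI IS (log2 fold change -2.58), and by FDR alone 5 were lower and 3 higher there. Each sample is a piece of bulk tissue, in which fewer cells of a type and less RNA per cell cannot be told apart.

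In a motile axoneme, dynein motors stand in outer and inner arms on the outer doublet microtubules and slide one doublet along the next. Radial spokes connect the doublets to the central apparatus, and tektins are filament proteins inside the doublets. Spermatids make the largest amounts of these parts for the sperm tail, while multiciliated cells, such as those of the efferent ductules that lead from the testis into the IS, build them for cilia. The principal cells of the IS and caput carry stereocilia, which have no axoneme.

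In the WT testis most members were far above their epididymal levels. The tissues were compared within the 13 WT samples, scaled together, with a false discovery rate (FDR) under 0.01 and a change of more than 2-fold required. All 39 members could be tested there. Dnahc7a, Dnahc17, Tekt3, Tekt5, Rsph6a and Rtdr1 had too few counts to be fitted in either epididymal segment by itself, and were fitted here beside their high testis counts. Over the WT caput samples they had 25, 74, 20, 13, 38 and 2 counts. The sizes of their differences are uncertain, and they count as no support in the counts and medians below. Against the WT caput, 33 members were higher in the WT testis and 2 were lower, where 38.1% of all genes tested were higher and 31.2% lower. Against the WT IS, 31 members were higher and 5 were lower in the testis, where 38.5% of all genes were higher and 30.9% lower. The median log2 difference of the members was 6.76 from caput to testis and 5.77 from IS to testis, beside 0.16 and 0.19 over all genes tested. Other scalings moved the median of all genes from caput to testis to as low as -0.34, with upper quartile factors, and the members' median to 6.26.

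Per exon length, as CPM divided by the kilobases of exon (RPKM), Rsph1 had the highest testis level of the members with a length. This spoke head gene was read at 892 ± 35.4 RPKM in the WT testis (SD, n = 3), 8.78 ± 1.03 in the WT IS and 9.60 ± 1.00 in the WT caput (SD, n = 5 each). Among the tektins the testis levels were 293 ± 11.9 RPKM for Tekt1, 251 ± 18.8 for Tekt2, 174 ± 15.97 for Tekt4, 158 ± 9.59 for Tekt3 and 96.2 ± 3.46 for Tekt5. Tekt4 and Tekt3 stood closest together in that order and differed by about the size of their spread. The outer arm heavy chains of the sperm tail, Dnahc8 and Dnahc17, were read at 73.3 ± 6.88 and 51.2 ± 4.23 RPKM in the testis, and at no more than 0.115 RPKM in either WT epididymal segment.

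Another set of members had its highest WT level in the IS. Dnahc5 (an outer arm heavy chain), Dnahc11 (also an outer arm heavy chain) and Rsph4a (the spoke head gene of motile cilia) had lower levels in testis than in IS samples. Dnahc5 was read at 1.10 ± 0.207 RPKM in the IS, 0.0420 ± 0.0169 in the caput and 0.363 ± 0.0531 in the testis. Rsph4a was read at 2.28 ± 0.687, 0.133 ± 0.114 and 0.180 ± 0.0286 RPKM in the same order. From IS to caput, 16 members were lower and 4 were higher (Dnahc17, Rsph6a, Spag11a and Spag4), where 9.24% of all genes were lower and 11.4% higher. Dnahc17, Rsph6a and Rtdr1, the last among the 16, had too few counts to be fitted in either segment alone, so these calls are uncertain. They had 12, 5 and 15 counts over the WT IS samples and 74, 38 and 2 over the WT caput samples. Rtdr1 stayed called in 6 of the 13 fits that left out a sample. The IS and caput samples came from the same mice by the study's methods and were taken as independent. The log2 difference from IS to caput was -5.60 for Dnahc9 (an outer arm heavy chain), -4.78 for Dnahc6 (an inner arm heavy chain), -4.70 for Dnahc5 and -4.09 for Rsph4a. Over the 5 WT caput samples these genes had 7, 19, 31 and 23 counts, so the sizes of these differences are uncertain. Spag11a and Spag11b, which encode secreted defensin-like peptides of the epididymis and no part of the axoneme, were far higher in the epididymis than in the testis. Spag11b was read at 5369 ± 455 RPKM in the IS, 6448 ± 1018 in the caput and 10.8 ± 0.964 in the testis.

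**Figure D1:**
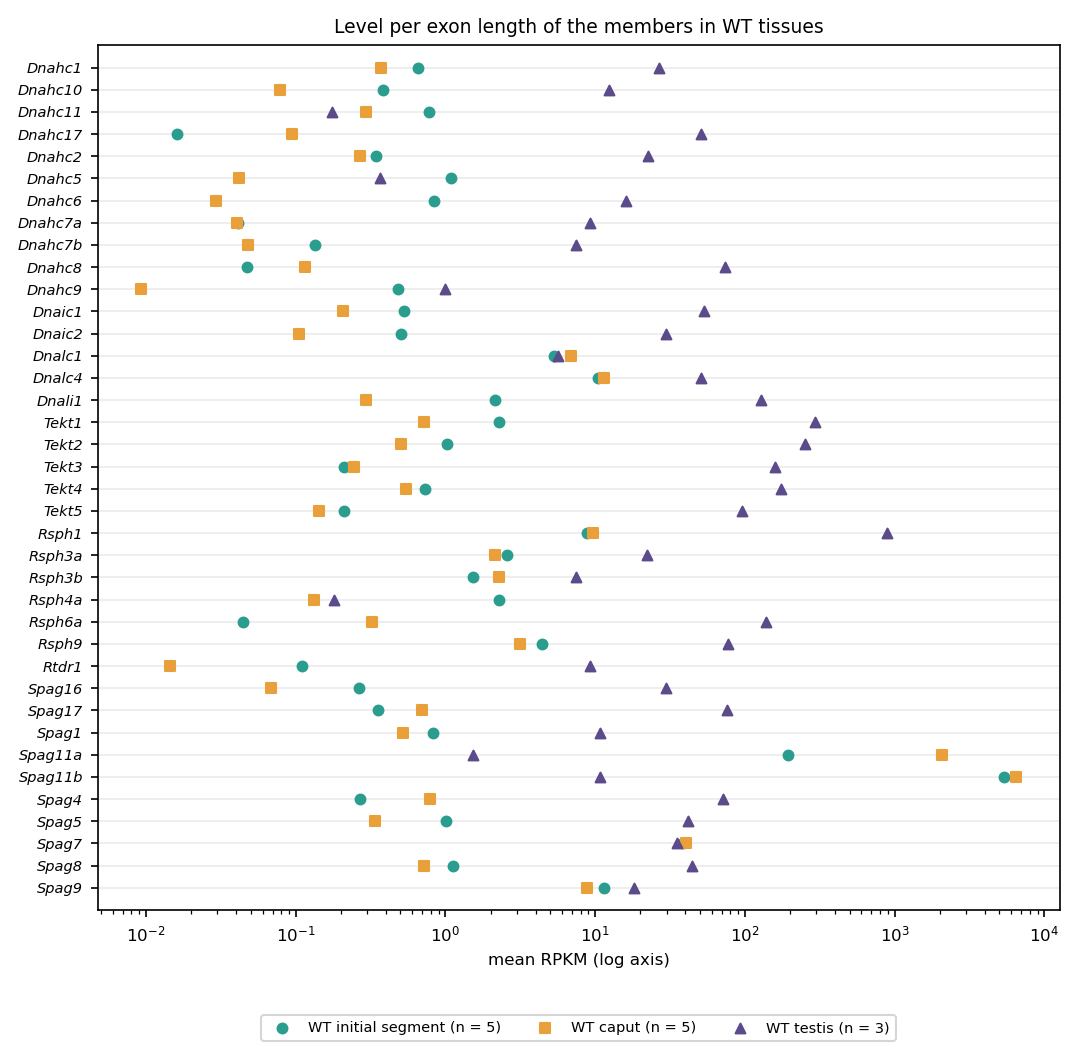
Mean RPKM (logarithmic axis) of the 38 members with an exon length in the WT IS (n = 5), caput (n = 5) and testis (n = 3). Most testis points lie far to the right of both epididymal points, while Dnahc5, Dnahc11, Rsph4a, Spag11a and Spag11b have testis points to the left of their IS points.

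In the IS, 9 members were upregulated in ArKI mice and 0 were downregulated, of 32 that passed the filter on low counts. Of all 13434 genes tested with the same limits (FDR under 0.01, more than 2-fold), 2.72% were higher and 1.32% lower. The upregulated members were 3 of 8 tested dynein heavy chains (Dnahc9, Dnahc10 and Dnahc7b), 3 of 5 smaller dynein chains (Dnaic1, Dnaic2 and Dnali1), 1 of 3 tektins (Tekt1), 1 of 3 central apparatus genes (Spag17) and 1 of 8 other Spag genes (Spag8). None of the 5 tested radial spoke genes passed both limits. The median log2 fold change of the 32 members was 0.91, beside -4.41e-05 over all genes tested, and 28 of the 32 had a positive value. At an unadjusted p below 0.05, edgeR gave 20 members higher and 0 lower, where 20.2% of all genes were higher and 19.5% lower. At the FDR and fold limits DESeq2, which kept 38 members, called 14 higher and 1 lower, beside 2.92% and 1.54% of all genes. With limma voom 9 of 32 were higher and 0 lower, beside 2.71% and 1.34% of all genes, but only 6 of the 9 edgeR calls were kept. It called Dnahc2, Dnahc6 and the radial spoke gene Rsph4a, and did not call Dnaic1, Dnaic2 and Spag8. The DESeq2 calls included Rtdr1 and Dnahc8, which have few counts in the IS. Summed over a list of multiciliated cell genes, the CPM ran from 181 to 215 in the WT IS and from 240 to 504 in the ArKI IS. The part of such cells in the members' rise was not tested.

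Promoter sequences of the upregulated members are shown because RFX factors, which drive genes of motile cilia, bind the X-box, of which GTTGCC is 1 arm. The 250 bases before the RefSeq start (GRCm38.p6, given on the gene's strand) held GTTGCC on either strand in 4 of the 9 upregulated members, 7 of the 33 members with a promoter (21.2%) and 11.8% of 27025 genes. The forkhead core TGTTTAC, the kind of site that FOXJ1 binds, was in 0 of the 9, 2 of the 33 (6.06%) and 3.54% of all genes. The letters of these motifs cannot overlap on either strand, and a match is a description of letters, not a bound site. Only these exact letters were searched, so other spellings of an X-box arm were neither counted nor marked. The 4 windows were chr11:72361883-72362132 on the minus strand for Tekt1, chr11:114727169-114727418 for Dnaic2, chr5:124724835-124725084 for Dnahc10 and chr1:46066603-46066852 for Dnahc7b, the last 3 on the plus strand. The annotated span of Tekt1, Dnaic2 and Dnahc7b begins further upstream than the start used here, and Tekt1 has 2 starts, of which the upstream one is shown. Capitals mark GTTGCC or its reverse complement GGCAAC.
Tekt1: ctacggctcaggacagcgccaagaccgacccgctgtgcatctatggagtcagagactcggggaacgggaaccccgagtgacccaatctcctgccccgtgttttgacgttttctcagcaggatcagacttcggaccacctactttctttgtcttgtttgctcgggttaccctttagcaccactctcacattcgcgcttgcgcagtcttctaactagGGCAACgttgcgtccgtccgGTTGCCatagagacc
Dnaic2: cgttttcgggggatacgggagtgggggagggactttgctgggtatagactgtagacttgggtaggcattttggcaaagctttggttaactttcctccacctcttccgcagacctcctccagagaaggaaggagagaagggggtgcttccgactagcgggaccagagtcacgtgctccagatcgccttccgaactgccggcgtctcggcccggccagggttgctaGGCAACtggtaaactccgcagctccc
Dnahc10: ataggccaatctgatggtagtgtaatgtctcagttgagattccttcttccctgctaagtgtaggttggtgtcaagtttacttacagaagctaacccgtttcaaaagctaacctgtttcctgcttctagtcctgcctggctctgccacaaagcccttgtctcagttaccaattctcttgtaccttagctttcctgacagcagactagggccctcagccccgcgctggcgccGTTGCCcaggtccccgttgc
Dnahc7b: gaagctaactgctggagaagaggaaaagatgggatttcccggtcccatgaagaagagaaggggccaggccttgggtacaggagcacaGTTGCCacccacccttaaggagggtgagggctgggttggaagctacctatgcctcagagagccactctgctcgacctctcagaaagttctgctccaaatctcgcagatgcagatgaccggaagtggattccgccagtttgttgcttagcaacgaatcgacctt
In Tekt1 the motif stood 35 and 15 bases before the start, in Dnaic2 26, in Dnahc10 20 and in Dnahc7b 163.

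Dnahc9, an outer arm heavy chain (chr11:65831324-66168581), was read at 6.42, 8.45, 8.47, 8.10 and 10.1 CPM in WT IS replicates 1 to 5, and at 17.1, 17.05, 41.4, 19.1 and 27.4 CPM in the ArKI replicates. Every ArKI sample was above every WT sample. Its mean was 8.31 ± 1.31 CPM in WT and 24.4 ± 10.4 CPM in ArKI mice (SD, n = 5 each), a log2 fold change of 1.55 (SE 0.28, adjusted p = 0.00269 by the quasi-likelihood test of edgeR after Benjamini-Hochberg correction, the source of the adjusted p-values below). Dnahc10, an inner arm heavy chain (chr5:124725085-124834308), was read at 5.81, 6.62, 7.35, 6.25 and 7.50 CPM in WT and 10.9, 9.72, 30.7, 16.2 and 20.1 CPM in ArKI samples. Its groups did not overlap either, and its log2 fold change was 1.38 (SE 0.32, adjusted p = 0.0093). Dnahc7b, also an inner arm heavy chain (chr1:46066071-46373551), had 1.70, 2.397, 2.49, 4.12 and 3.96 CPM in WT and 5.83, 4.37, 12.1, 6.31 and 6.23 CPM in ArKI samples. Here the lowest ArKI sample was just above the highest WT sample, and the log2 fold change was 1.24 (SE 0.29, adjusted p = 0.00416).

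Of the smaller dynein chains, Dnali1, the light intermediate chain of inner arms (chr4:125055339-125065657), had 3.996, 5.02, 5.11, 4.26 and 6.25 CPM in WT IS samples and 13.6, 7.04, 20.9, 7.67 and 15.04 CPM in ArKI samples. The groups were separated, with a log2 fold change of 1.38 (SE 0.29, adjusted p = 0.00407). Dnaic1 (chr4:41569647-41638158) and Dnaic2 (chr11:114721341-114757889), the intermediate chains of outer arms, also passed, but their groups overlapped. Dnaic1 had 1.45, 1.48, 1.87, 1.56 and 1.67 CPM in WT and 3.18, 1.69, 5.48, 4.09 and 3.52 CPM in ArKI samples, a log2 fold change of 1.14 (SE 0.27, adjusted p = 0.003). Dnaic2 had 2.30, 2.17, 1.99, 2.13 and 3.96 CPM in WT and 3.97, 3.24, 8.22, 4.60 and 6.23 CPM in ArKI samples, a log2 fold change of 1.04 (SE 0.26, adjusted p = 0.00522). In Dnaic1 and Dnaic2 the overlapping ArKI sample was replicate 2. The light chain Dnalc1 passed the FDR but not the fold limit, with a log2 fold change of 0.32 (adjusted p = 0.00495).

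Tekt1 (chr11:72344717-72362442) had 3.51, 5.37, 3.12, 3.12 and 4.79 CPM in WT IS samples and 11.5, 5.78, 22.5, 11.4 and 11.3 CPM in ArKI samples. Its groups did not overlap, and its log2 fold change of 1.63 (SE 0.33, adjusted p = 0.0038) was the largest of the upregulated members. Spag17, a protein of the central apparatus (chr3:99885417-100143322), had 2.91, 2.85, 3.86, 2.27 and 4.37 CPM in WT and 4.77, 5.64, 9.51, 7.84 and 7.401 CPM in ArKI samples, a log2 fold change of 1.09 (SE 0.21, adjusted p = 0.000665). Spag17 was thus higher in every ArKI sample than in any WT sample. Spag8, a microtubule-binding protein (chr4:43651330-43653594), had 2.66, 2.17, 1.25, 2.41 and 1.67 CPM in WT and 5.30, 2.11, 7.50, 4.09 and 4.70 CPM in ArKI samples. Its groups overlapped, again through ArKI replicate 2, and its log2 fold change was 1.23 (SE 0.29, adjusted p = 0.0032).

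**Figure D2:**
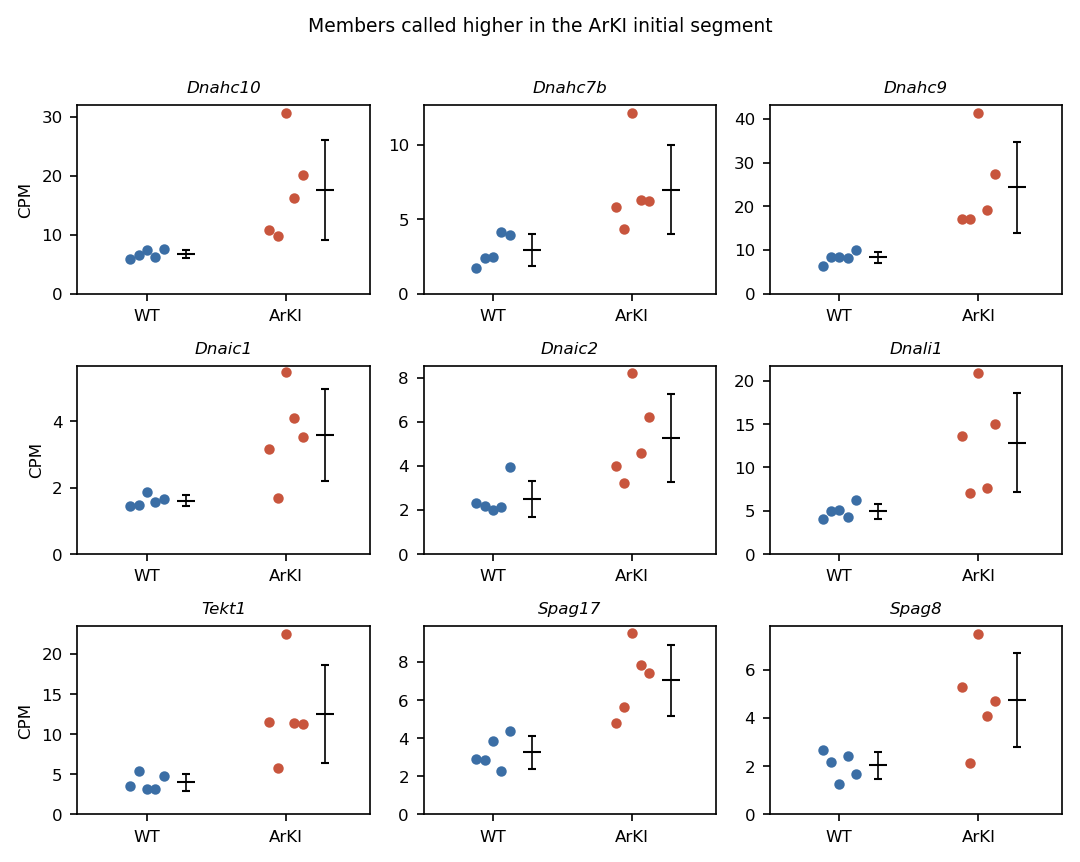
CPM of the 9 members upregulated in the ArKI IS, 1 point per sample, with the mean and SD of the 5 WT and the 5 ArKI samples. ArKI replicate 3 is the highest point for each gene, and the groups overlap for Dnaic1, Dnaic2 and Spag8.

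Among the members that missed a limit, the largest log2 fold changes were those of Dnahc6 (1.33, SE 0.36, adjusted p = 0.0232), Spag16 (1.31, SE 0.42, adjusted p = 0.0344) and Rsph4a (1.31, SE 0.32, adjusted p = 0.0142). Rsph4a nevertheless had separated groups, with 7.99, 12.3, 7.48, 5.97 and 11.5 CPM in WT and 20.9, 13.5, 39.2, 17.4 and 22.2 CPM in ArKI samples. Without the fold limit 13 members were higher and 0 lower, where 9.35% of all genes were higher and 9.48% lower. The additional members were Spag6, Rsph1, Dnalc1 and Spag5, a protein of the mitotic spindle. Spag6, a central apparatus gene, had 6.90, 7.19, 7.48, 6.39 and 8.23 CPM in WT and 13.2, 10.99, 20.2, 12.6 and 12.7 CPM in ArKI samples, a log2 fold change of 0.94 (SE 0.15, adjusted p = 9.54e-05). Rsph1 had 12.96, 11.8, 14.3, 11.4 and 14.9 CPM in WT and 24.0, 16.5, 34.0, 19.3 and 20.7 CPM in ArKI samples, a log2 fold change of 0.80 (SE 0.17, adjusted p = 0.0033). Both genes had separated groups. In all, 10 of the 32 tested members had every ArKI sample above every WT sample and 0 had the opposite, beside 9.53% and 10.5% of all genes.

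The rise was not shared by all members. The spoke stalk genes Rsph3a and Rsph3b had log2 fold changes of -0.12 and 0.16, the spoke head gene Rsph9 0.14, and Spag7 and the kinase scaffold Spag9 -0.03 and -0.10, none of which passed the test. The secreted peptides Spag11a and Spag11b had log2 fold changes of -0.14 and 0.21 and did not pass either. Members with too few counts in the IS to be fitted were Dnahc7a, Dnahc8, Dnahc17, Tekt3, Tekt5, Rsph6a and Rtdr1. Dnahc8 had 8, 6, 12, 4 and 30 counts in WT samples and 4, 2, 0, 1 and 2 in ArKI samples. Its mean difference in log2(CPM + 0.5), ArKI minus WT, was -1.22, with groups that overlapped in counts but not in CPM. Rtdr1, a radial spoke gene, had 4, 2, 4, 2 and 3 counts in WT and 8, 7, 15, 3 and 15 in ArKI samples, a mean difference of 0.99. Both reached 10 counts only through their higher group, so these values are a description.

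ArKI replicate 3 was the highest of its group for 24 of the 32 tested members, and ArKI replicate 2 was the lowest for 21. Without ArKI replicate 3, 6 members were upregulated (Dnahc10, Dnahc9, Dnali1, Rsph4a, Spag8 and Tekt1). Without ArKI replicate 2, 15 were. Of the WT samples, leaving out replicate 3 reduced the count most, to 3 (Dnahc9, Dnaic1 and Spag17), and leaving out replicates 1, 2 or 4 gave 4, 5 and 4. Leaving out ArKI replicate 5 gave 6. Dnahc9 passed in all 10 fits that left out a sample, Dnaic1 in 9, Spag17 in 8, Tekt1 and Spag8 in 7, Dnahc7b in 6, Dnaic2 and Dnali1 in 4 and Dnahc10 in 3.

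Other axonemal genes showed the same direction in the IS. From a list of genes of the axoneme outside the members, 22 of 48 tested were upregulated and 0 downregulated, with a median log2 fold change of 1.14. The largest changes were those of Lrrc34 (1.95), Armc4 (1.86), a docking factor of outer arms, Wdr16 (1.69) and Nme5 (1.62). Their summed CPM ran from 259 to 336 in WT and from 388 to 970 in ArKI samples. From the multiciliated cell list, 6 of 14 tested were upregulated and 0 downregulated, with a median of 1.34, led by Sntn (1.65), Ccdc153 (1.61), Cdhr3 (1.55) and Fam183b (1.51). Foxj1, the master regulator of motile cilia, ran from 22.8 to 35.8 CPM in WT and from 34.9 to 126 CPM in ArKI samples, with a log2 fold change of 1.31 that missed the FDR limit (SE 0.33, adjusted p = 0.0177). Ccno, a multiciliated cell gene of the same list that was picked out after its values were seen, went the other way, with 89.0 ± 7.39 CPM in WT and 76.7 ± 7.92 CPM in ArKI samples (log2 fold change -0.21, adjusted p = 0.0289).

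Lists for assembly and transport gave smaller medians. Of 11 dynein assembly factors 1 was upregulated (Zmynd10, log2 fold change 1.24), and their median was 0.36. Of 33 intraflagellar transport genes, which carry parts into the growing axoneme, none passed both limits but 12 were higher by FDR alone, with a median of 0.23. Of 3 tested genes of the late spermatid nucleus and acrosome 2 were downregulated, the protamine gene Prm2 (-4.11) and Gsg1 (-3.85), and the summed CPM of that list ran from 15.3 to 73.6 in WT and from 4.24 to 9.63 in ArKI samples. Of 9 tested genes of the sperm tail sheath and dense fibres 1 was downregulated (Odf1, -2.46) and 1 upregulated (Gstm5, 1.13), with a median of 0.06. The summed CPM of all 26 genes of that list ran from 222 to 305 in WT and from 243 to 410 in ArKI samples. Most of the 26 had too few counts to be fitted, so the median does not cover them. Akap4 was one of them, with 148 counts over the WT and 2 over the ArKI samples. Prm1 of the late spermatid list was not fitted either, with 193 and 8 counts. Of 6 smooth muscle markers 2 were downregulated, Cnn1 (-1.10) and Myh11 (-1.03), and 5 were lower by FDR alone, with a median of -0.96. Summed basal cell markers ran from 468 to 511 CPM in WT and from 364 to 403 CPM in ArKI samples, with 3 of 5 lower by FDR alone. Of 6 tested macrophage and lymphocyte markers 3 were lower by FDR alone, with summed CPM of 122 to 157 in WT and 87.2 to 125 in ArKI samples. Their part in the members' values was not tested.

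**Figure D3:**
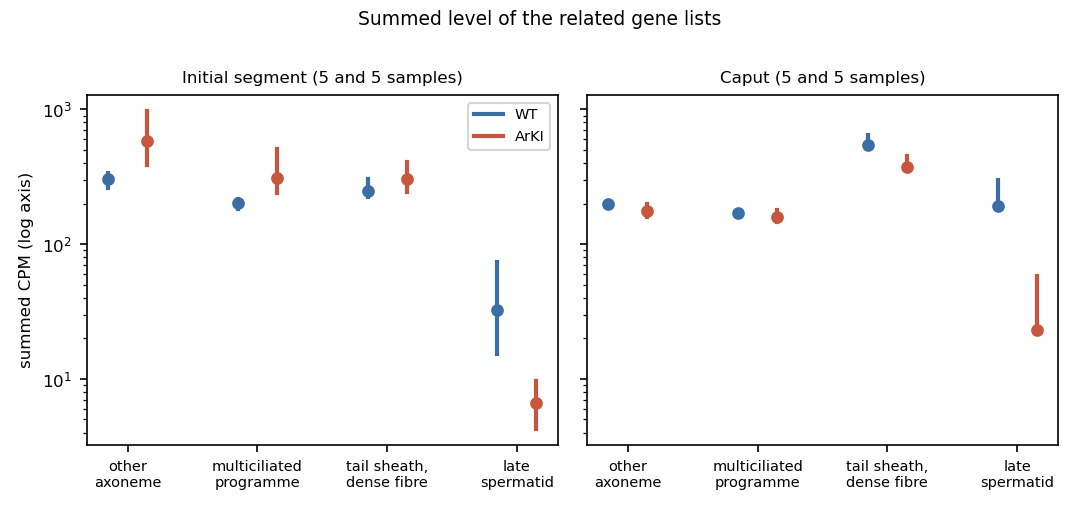
Summed CPM (logarithmic axis) of 4 gene lists in WT and ArKI samples of the IS and caput, shown as the lowest, median and highest of 5 samples. Axonemal and multiciliated genes lie higher in the ArKI IS, and late spermatid genes lie lower in both ArKI segments.

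In the caput 19 members passed the filter, and no tektin was among them. Only Dnahc8 was downregulated and 0 members were upregulated at both limits, where 2.55% of all 13726 genes tested were lower and 2.43% higher. The median log2 fold change of the members was -0.05, beside 0.00 over all genes, with 8 positive and 11 negative values. At an unadjusted p below 0.05 edgeR gave 2 members higher and 6 lower, where 18.9% of all genes were higher and 18.8% lower. At the FDR and fold limits DESeq2, which kept 38 members, called 5 lower and 0 higher, beside 3.36% and 2.5% of all genes, and limma voom 1 and 0 of 19. Of the 5, Dnahc17, Rsph6a, Spag6 and Tekt4 have few counts and count as no support. By FDR alone 3 members were lower (Dnahc8, Dnahc1 and Rsph1) and 2 were higher (Spag4 and Spag5), where 9.36% of all genes were lower and 8.62% higher. Summed over a list of late spermatid genes, the CPM ran from 185 to 301 in the WT caput and from 21.4 to 58.4 in the ArKI caput. The part of sperm RNA in the values of single members was not tested.

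Dnahc8 (chr17:30626935-30875762) had 3.07, 1.52, 5.13, 3.16 and 3.73 CPM in WT caput samples and 0, 0.921, 0.617, 1.54 and 0.246 CPM in ArKI samples, from 30, 14, 44, 26 and 32 counts and from 0, 4, 7, 18 and 3 counts. The groups overlapped by the lowest WT and the highest ArKI sample. Dnahc8 passed the filter through its WT counts, and it drops out where each sample must reach 10 counts. Its log2 fold change was -2.29 (SE 0.52, adjusted p = 0.0055), and it passed in 3 of the 10 fits that left out a sample, those without WT replicate 2, ArKI replicate 1 or ArKI replicate 4. Without ArKI replicate 4, 3 members were lower (Dnahc1, Dnahc2 and Dnahc8), and leaving out any other sample gave 0 or 1.

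Dnahc1, an inner arm heavy chain (chr14:31260375-31325891), had 5.21, 5.85, 5.60, 4.74 and 4.66 CPM in WT and 2.88, 2.76, 3.00, 3.25 and 1.89 CPM in ArKI samples, a log2 fold change of -0.92 (SE 0.18, adjusted p = 0.000771). Rsph1 (chr17:31255019-31277296) had 11.9, 13.7, 15.5, 15.3 and 14.4 CPM in WT and 9.85, 6.68, 10.5, 9.67 and 10.02 CPM in ArKI samples, a log2 fold change of -0.56 (adjusted p = 0.00136). Both had separated groups and missed only the fold limit. Dnahc2, an inner arm heavy chain, had 4.29, 3.90, 3.50, 3.04 and 6.75 CPM in WT and 2.64, 2.07, 2.20, 2.99 and 1.56 CPM in ArKI samples, also separated, with a log2 fold change of -0.90 (SE 0.24, adjusted p = 0.0101). In the other direction, Spag5 had 1.94, 1.95, 1.87, 1.94 and 2.45 CPM in WT and 3.00, 4.14, 3.79, 3.51 and 3.53 CPM in ArKI samples, a log2 fold change of 0.81 (SE 0.18, adjusted p = 0.00274). Spag4, a SUN domain protein of the spermatid nuclear envelope, had a log2 fold change of 0.77 (SE 0.21, adjusted p = 0.00944) with overlapping groups. In all, 4 members had every ArKI sample below every WT sample (Dnahc1, Dnahc2, Dnalc1 and Rsph1) and 1 had every ArKI sample above (Spag5), beside 10.4% and 9.94% of all genes.

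The remaining 20 members had too few counts to be fitted in the caput. For those that reached 10 counts in some sample the values are given singly, with no test, since the higher group set whether a gene reached that level, and their number supports nothing. Dnahc17 had 26, 9, 19, 7 and 13 counts in WT and 1, 0, 0, 4 and 0 in ArKI samples, a mean difference of -1.81 in log2(CPM + 0.5). Tekt4 had 9, 5, 14, 9 and 14 counts in WT and 1, 0, 0, 5 and 0 in ArKI samples (difference -1.44). Tekt1 had 11, 7, 13, 7 and 17 counts in WT and 4, 0, 6, 8 and 2 in ArKI samples (difference -1.02). These sperm tail and tektin genes had separated groups in CPM, as had Spag6 (14, 12, 8, 10 and 8 counts against 4, 0, 1, 8 and 3, difference -1.12) and Rsph6a (7, 3, 12, 4 and 12 against 2, 0, 1, 1 and 0, difference -1.16). Rsph6a encodes the spoke head protein of the sperm tail. Dnahc10 had a difference of -0.71, also with separated groups.

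Tekt5 and Dnahc9 had more reads in the ArKI caput. Tekt5 had 6, 4, 1, 0 and 2 counts in WT and 8, 8, 7, 9 and 10 in ArKI samples (difference 0.95). Dnahc9 had 1, 1, 2, 1 and 2 counts in WT and 4, 2, 12, 13 and 6 in ArKI samples (difference 0.85). With few reads, Spag16 had 22 counts over the WT samples and 2 over the ArKI samples, Tekt3 had 20 and 2, and Dnahc6 had 19 and 9. The groups of 4 other members overlapped. Dnahc7b had 7, 14, 9, 8 and 8 counts in WT and 12, 1, 12, 4 and 8 in ArKI samples (difference -0.38), and Tekt2 had 9, 5, 11, 11 and 9 against 2, 2, 12, 9 and 11 (difference -0.39). For the cilia genes Dnahc5 (7, 2, 8, 7 and 7 against 5, 4, 8, 11 and 12) and Rsph4a (5, 1, 3, 3 and 11 against 2, 6, 6, 11 and 5) the differences were 0.17 and 0.24.

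**Figure D4:**
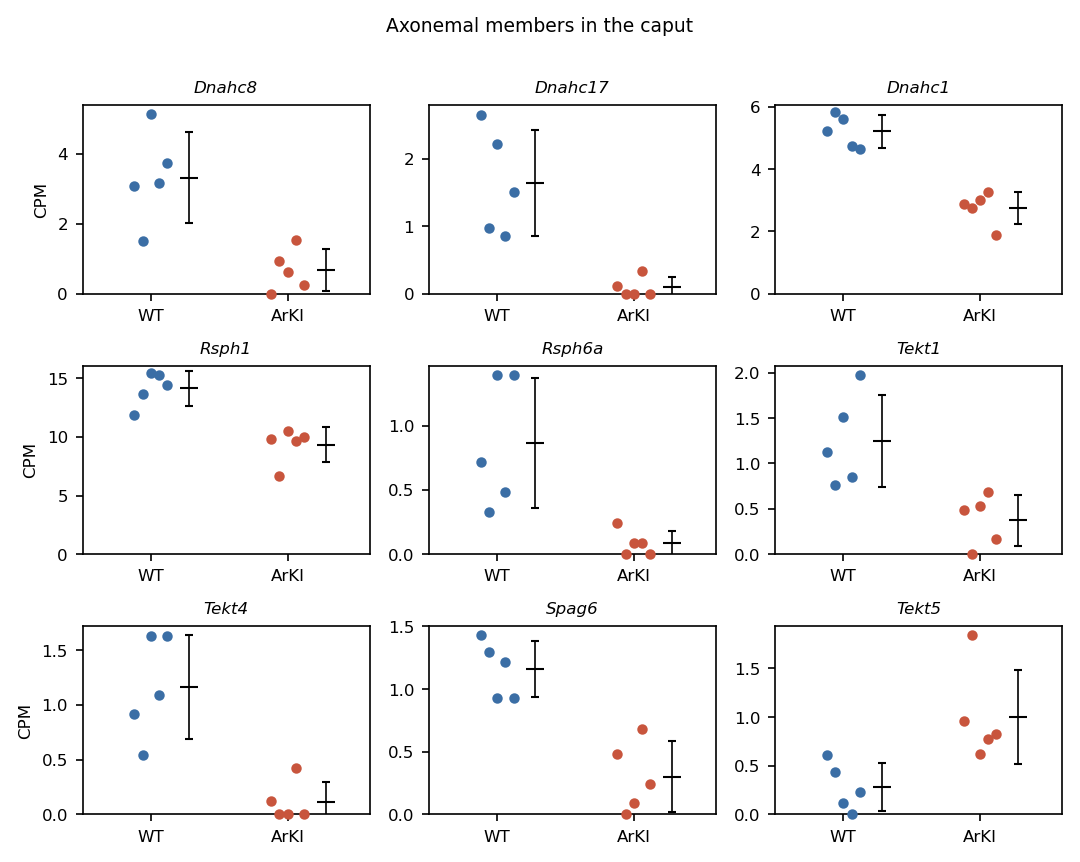
CPM of 9 members in the caput, 1 point per sample, with the mean and SD of the 5 WT and the 5 ArKI samples (SD bars end at 0). The 9 were chosen by hand and do not stand for all members, since the 19 tested ones had 8 positive and 11 negative log2 fold changes. Dnahc17, Rsph6a, Tekt1, Tekt4, Spag6 and Tekt5 had too few counts to be fitted. Dnahc8, Dnahc17, Dnahc1, Rsph1, Rsph6a, Tekt1, Tekt4 and Spag6 lie lower and Tekt5 lies higher in ArKI samples, with the lowest WT and highest ArKI sample of Dnahc8 side by side.

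Most tested genes of the sperm lists were downregulated in the caput. Of the sperm tail sheath and dense fibre list 11 of 18 tested were downregulated, the list's median being -1.28 on the log2 scale. They included Akap4 (-3.63), the main fibrous sheath protein, Atp1a4 (-3.51), Gapdhs (-3.27) and Ldhc (-3.18), while Odf1 had -1.10. Of the late spermatid list 8 of 10 were downregulated, with a median of -2.86, led by H1fnt (-3.39), Prm1 (-3.34), Tnp1 (-3.30) and Prm2 (-3.09). Of 30 other axonemal genes 3 were downregulated (Meig1, -3.29, Lrrc34, -1.32, and Ccdc39, -1.05) and 1 upregulated (Ccdc147, 2.77), with a median of -0.35. Of 10 dynein assembly factors 2 were downregulated (Zmynd10, -2.29, and Lrrc50, -1.74). Of 8 multiciliated cell genes 2 were downregulated (1110017D15Rik, -2.90, and Ccdc67, -1.44), and their summed CPM ran from 161 to 177 in WT and from 145 to 180 in ArKI samples. Foxj1 was read at 1.19 ± 0.163 CPM in the WT caput and 1.82 ± 1.06 CPM in the ArKI caput, against 29.3 ± 4.63 CPM in the WT IS. Ccno alone made up most of the summed multiciliated CPM in the caput, with 140 ± 6.81 CPM in WT and 136 ± 16.9 CPM in ArKI samples.

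The genotype difference itself differed between the segments for 5 of the 18 members that could be tested in both. These were Dnahc1, Dnahc2, Dnalc1, Rsph1 and Spag17, each lower in the caput than in the IS by the term for segment by genotype in a model over all 20 epididymal samples (adjusted p below 0.01), and 0 were higher. Of all 14329 genes in that model 4.23% were lower and 3.95% higher. Both segments came from the same 5 WT and 5 ArKI mice by the study's methods, but no source ties single IS and caput samples to a mouse, so the model took the samples as independent. The caput effect minus the IS effect was -2.12 on the log2 scale for Dnahc2 (SE 0.43, adjusted p = 0.0017), -1.41 for Dnahc1 (SE 0.30, adjusted p = 0.00182) and -1.36 for Rsph1 (SE 0.21, adjusted p = 7.34e-05). These genes had positive IS and negative caput log2 fold changes. Spag17 (-1.17, adjusted p = 0.00249) and Dnalc1 (-0.49, adjusted p = 0.000756) had smaller differences. Each of the 5 passed in all 20 fits that left out a sample.

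The model held 33 members in all, with a median difference of -0.81, beside 0.00 over all genes. At an unadjusted p below 0.05 edgeR gave 18 lower and 0 higher, where 14% of all genes were lower and 13.8% higher. The median and the 18 include members with too few caput counts to be tested there, so neither supports a statement on the caput. Among the 18 these include Dnahc6, Dnahc7b, Dnaic1, Dnaic2 and Tekt2. Another 6 members passed the limit (Dnahc10, Dnali1, Tekt1, Tekt4, Spag16 and Spag6), but they had too few caput counts to be tested there by themselves and entered through their IS counts, so they support no statement on the caput. Over the WT and the ArKI caput samples, Tekt1 had 55 and 20 counts, Spag6 52 and 16, Dnahc10 61 and 32, and Dnali1 30 and 15. Tekt4 had 51 and 6 and Spag16 22 and 2, so that their fitted values depend on the prior count. Dnali1 passed in 5 of the 20 fits that left out a sample and Dnahc10 in 16. Dnahc9, higher in ArKI samples of both segments, had a difference of 0.63 (SE 0.72, adjusted p = 0.624).

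**Figure D5:**
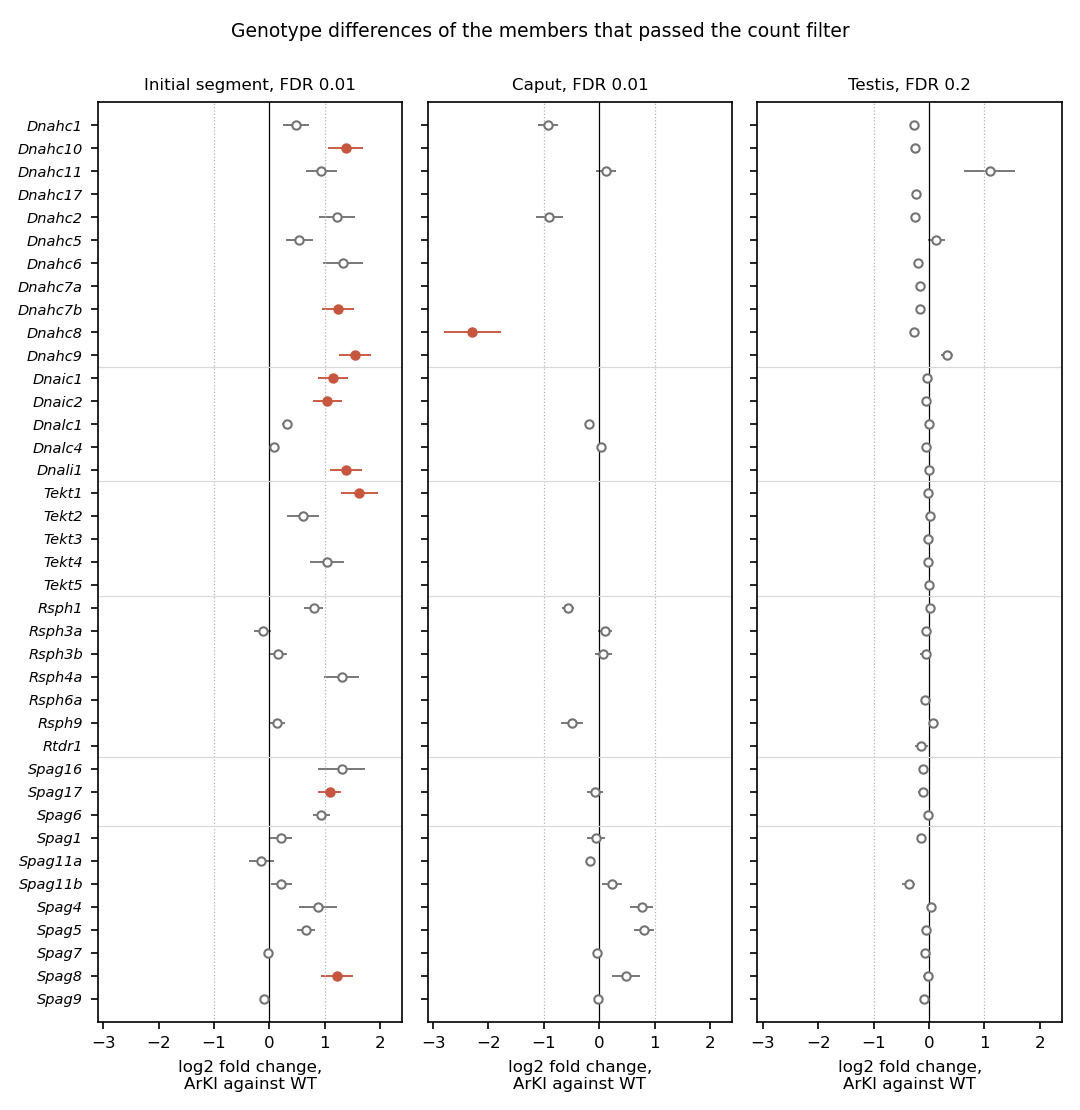
Log2 fold change of ArKI against WT with its SE for each tested member in the IS, caput and testis, grouped by class (filled red points passed the FDR and fold limits, dotted lines mark a fold of 2). Most IS points lie to the right of 0, caput points spread to both sides, and nearly all testis points lie within the dotted lines.

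In the testis, where 37 members were tested, 0 were called in either direction with an FDR under 0.2 and more than 2-fold change required, where 0.751% of all 15838 genes were higher and 0.0821% lower. By edgeR 1 member was higher and 9 were lower at an unadjusted p below 0.05, where 7.1% of all genes were higher and 5.95% lower. At the FDR and fold limits limma voom called 0 members, and DESeq2, which kept 38, called 1 higher (Dnahc11) and 0 lower, beside 0.599% and 0.055% of all genes. The median log2 fold change was -0.06, beside 0.00 over all genes. Tektins were nearly level, with a median of -0.02, and the median of the heavy chains was -0.19. Without the fold limit 6 members were lower and 1 was higher, where 1.79% of all genes were lower and 3.55% higher. Of the sperm tail sheath and dense fibre list 0 of 26 tested genes were called in the testis, and of the late spermatid list 0 of 21. Prm1, Prm2, Odf1 and Akap4 had testis log2 fold changes of 0.08, 0.11, 0.04 and 0.01, and Foxj1 had -0.11.

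Dnahc8 had 1614, 1427 and 1749 CPM in WT testis samples and 1177, 1392 and 1405 CPM in ArKI samples, a log2 fold change of -0.27 (adjusted p = 0.0981). Dnahc1 had 273, 263 and 307 CPM in WT and 207, 253 and 237 CPM in ArKI samples, also -0.27 (SE 0.07, adjusted p = 0.0611). Dnahc17 had 655, 620 and 735 CPM against 507, 611 and 580 CPM (-0.24, adjusted p = 0.105), and Dnahc10 158, 150 and 174 CPM against 121, 146 and 137 CPM (-0.25, adjusted p = 0.0917). In these 4 heavy chains every ArKI sample was below every WT sample, with small differences. Dnahc9 was the 1 member higher by FDR alone, with 12.5, 14.3 and 11.5 CPM in WT and 14.8, 15.4 and 17.8 CPM in ArKI samples (log2 fold change 0.33, SE 0.11, adjusted p = 0.161). The largest changes that did not pass were those of Dnahc11 (1.10, SE 0.46, adjusted p = 0.386), Spag11b (-0.37, SE 0.12, adjusted p = 0.151) and Dnahc9. In all, 8 members had every ArKI sample below every WT sample and 1 had the opposite, beside 8.5% and 9.35% of all genes.

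Long genes as a whole were lower in the ArKI testis. The testis log2 fold change and exon length had a Spearman correlation of -0.31 over 15665 genes that share the same libraries. All 11 heavy chains exceeded 12000 bases, and the 808 other genes of that length had a median log2 fold change of -0.10. Of these, 164 (20.3%) were at or below the heavy chain median of -0.19. The same correlation was -0.05 in the IS and 0.00 in the caput. The part of gene length in the testis values was not tested.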

How the data were processed

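The authors sequenced 50-base single-end reads, aligned them with STAR 2.5.2b to mm10, counted uniquely mapped reads per RefSeq gene with Subread 1.5.1 and deposited raw counts for 23337 genes, without normalization or filtering. The labels and the methods name different library kits, so strand use is uncertain and overlapping genes may share reads. The 39 members and all gene lists were chosen with earlier results of these data known.

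Each tissue was fitted by itself in R 4.3.3 with edgeR 4.0.16 (filterByExpr with a minimum count of 10 and total of 15, TMM, robust quasi-likelihood, Benjamini-Hochberg over all genes tested). The study's own ROTS test was not used here. Calls needed an FDR below 0.01 (0.2 in the testis) and a fold change above 2. The interaction used all 20 epididymal samples and an adjusted p below 0.01. Members below the filter that reached 10 counts in a sample are described by counts and log2(CPM + 0.5). Exact permutation tests were run on them but are not given, since the higher group decided which were tested. CPM in genotype comparisons were scaled within a tissue, and RPKM over the 13 WT samples with GENCODE M21 exon lengths (38 members, Spag6 left out because its name belongs to 2 RefSeq genes). Gene positions and promoters are from RefSeq (GRCm38.p6). DESeq2 1.42.0, limma 3.58.1, other scalings, filters and thresholds, a replicate block and leaving out each sample were alternatives. The fits were tested on simulated data. Plots used Python 3.11.15 and matplotlib 3.10.9.

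Named in each contrast were all called members, the 3 largest changes among those not called, members with a called interaction, at most the 4 largest called genes of each list, and Foxj1, Prm1, Prm2, Odf1 and Akap4. The gene that carries the knock-in is not reported here. Other members are named for their class or values. No source says that samples with the same replicate number came from the same mouse or litter, so p-values measure the spread between these samples. No library pair in a group agreed within sampling noise (lowest chi-square per degree of freedom 2.43 over 46 pairs).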

Additional observations from a re-analysis of the deposited data

Results flagged for a closer look

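Of 102 groups of 5 samples tested for a value that stands apart from the rest, 6 had one, and chance gives about 1 in 20. In the WT IS, Dnaic2 had 3.96 CPM in replicate 5, where the others ran from 1.99 to 2.30. ArKI replicate 3 of the IS stood apart for Dnahc7b (12.1 CPM, others 4.37 to 6.31), Rsph9 (10.8 CPM, others 7.75 to 8.22) and Spag6 (20.2 CPM, others 10.99 to 13.2). In the caput, Spag5 had 2.45 CPM in WT replicate 5 (others 1.87 to 1.95), and Rsph1 had 6.68 CPM in ArKI replicate 2 (others 9.67 to 10.5).

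The ArKI effect differed between caput and IS, by the interaction term, for 5 members that could be tested in both segments. The caput effect minus the IS effect, on the log2 scale, was -1.41 for Dnahc1, -2.12 for Dnahc2, -0.49 for Dnalc1, -1.36 for Rsph1 and -1.17 for Spag17. Another 6 members passed with caput counts too few for a test there alone, so their fitted values are uncertain. These values were -2.40 for Dnahc10, -2.46 for Dnali1, -3.18 for Tekt1, -2.71 for Spag6 and, dependent on the prior count, -4.11 for Tekt4 and -4.49 for Spag16.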

How the results depend on the processing

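No member that was called changed direction under any alternative. In the IS, 9 upregulated members became 14 with DESeq2 and 14 at an FDR below 0.05, and 1 member (Dnahc8) was called lower with DESeq2 and with all genes of at least 1 count. Leaving out each replicate gave 3 to 15 upregulated members. In the caput, 1 downregulated member became 7 with all genes of at least 1 count (and 1 higher, Dnahc9), 5 with DESeq2, 3 by FDR alone (and 2 higher), and 0 with at least 10 counts in every sample. Leaving out each replicate gave 0 to 3. In the testis, DESeq2 called 1 higher, FDR alone 1 higher and 6 lower, and leaving out each replicate 0 to 1 higher. The other counts stayed within 1.5 times, and the cause of the changes was not tested. With the replicate block, 11 members were higher in the IS, with 8 of the 9 calls kept and Tekt1 no longer called. In the same setting 0 were lower in the caput (Dnahc8 missed the FDR limit), 1 was higher in the testis (Dnahc11) and 12 interactions were called. From WT IS to WT caput the block was fitted without the testis samples. The set of genes that passed the filter changed with it, and 33 of the 39 members were tested. That fit gave 3 higher (Dnahc8, Spag11a and Spag4) and 15 lower, with 17 of the 20 calls kept. Dnahc17, Rsph6a and Rtdr1 were not called in it. In the interaction model, likewise without the testis, they had too few counts to be fitted. Same-numbered WT and ArKI samples correlated from -0.0945 to 0.201 in the IS, -0.188 to 0.198 in the caput and -0.0048 to 0.0556 in the testis, and same-numbered IS and caput samples from -0.0121 to 0.185 in WT and -0.149 to 0.215 in ArKI mice, so the numbers were not taken to pair samples. Too few counts to be fitted were found for 20 of the 39 members in the caput and 7 in the IS, at similar depths of most libraries.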
